A study of Homo sapiens with 6 samples.

Results

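Collagen chains and 5 associated matrix genes were examined in the human lung adenocarcinoma line H2122, in 3 libraries of cells transfected with LYCAT shRNA and 3 of cells transfected with control shRNA, all for 48 hours. LYCAT is a former symbol of LCLAT1, a lysocardiolipin acyltransferase, and the series title speaks of a knockout where the sample labels name an shRNA. The members were the rows of the deposited count table whose symbols begin with COL, a number, A and a number, together with FN1, SPARC, LOX, LOXL2 and TNC, which came to 52 of 23368 rows. Of these, 48 were collagen chains or the associated genes, and 4 matched by spelling alone: COL4A3BP, a ceramide transfer protein, the antisense RNA COL18A1-AS1, and the pseudogenes COL6A4P1 and COL6A4P2. The labels give both groups the same growth and transfection conditions, and neither the number of shRNA sequences used nor whether libraries of 1 group came from separate cultures. The p-values below therefore rest on variation among these 6 libraries that could be technical in origin.

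Collagens are secreted proteins built as trimers that wind into a triple helix. Fibrillar types I, II, III, V and XI form the fibres of connective tissue and are made mainly by mesenchymal cells. Type IV forms the mesh of basement membranes, on which epithelial cells rest, with type VII anchoring it to the tissue below. Fibronectin (FN1) and SPARC bind collagen in the matrix, LOX and LOXL2 crosslink it, and tenascin C (TNC) modulates cell adhesion.

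The target of the shRNA was measured first. LCLAT1 stood at 18.9, 22.6 and 23.6 CPM (counts scaled to the size of each library) with LYCAT shRNA, against 56.8, 61.2 and 65.3 CPM with control shRNA, and was 2.83-fold lower (log2 -1.50, SE 0.114, edgeR quasi-likelihood adjusted p = 1.15e-18). Library totals were 3118946 to 4730453 counts with LYCAT shRNA and 4075367 to 4930079 with control shRNA, and 3 counts correspond to 0.609 to 0.962 CPM. The epithelial markers EPCAM, CDH1, KRT8, KRT18 and KRT19 summed to 1185 to 1237 CPM with LYCAT shRNA and 1291 to 1378 CPM with control shRNA, so epithelial markers were present in every library. Of these 5, KRT8, KRT18 and CDH1 were lower with LYCAT shRNA (log2 -0.43, -0.23 and -0.26, edgeR adjusted p = 0.000132, 0.00178 and 0.0345), though the groups overlapped for KRT18. EPCAM and KRT19 were not called (edgeR adjusted p = 0.544 and 0.655). Among all tested genes, 9.26% were lower at an adjusted p under 0.05.

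Libraries of 1 group differed from each other in several matrix genes, and 2 kinds of members were kept apart for this reason. For each gene the counts of the 3 libraries of a group were compared with those expected from library size alone, as a chi-square per degree of freedom, where 1 stands for counting noise. Members above the 95th percentile of the 9959 genes averaging 5 CPM or more, 4.58 in LYCAT shRNA libraries or 6.87 in control libraries, are called variable here and the others steady. These values chose the classes and are given as a description. Of the 19 members abundant enough to test, 5 were variable (FN1, SPARC, COL1A1, COL1A2 and COL3A1) and 14 were steady. All 3 tested fibrillar chains were variable and 0 of the other 11 tested collagen chains were. This chi-square grows with the count, so a low gene crosses the cutoff less readily, and the split depends in part on level. COL6A1, at a mean of 5.44 CPM, was steady by this rule. By spread beyond counting noise relative to the mean (excess squared coefficient of variation) it was number 47 of 9959 genes, where COL1A1 was number 26. The nearest value outside was that of COL18A1, 6.27 in control libraries, and the nearest inside was that of COL3A1, 28.4.

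**Figure D1:**
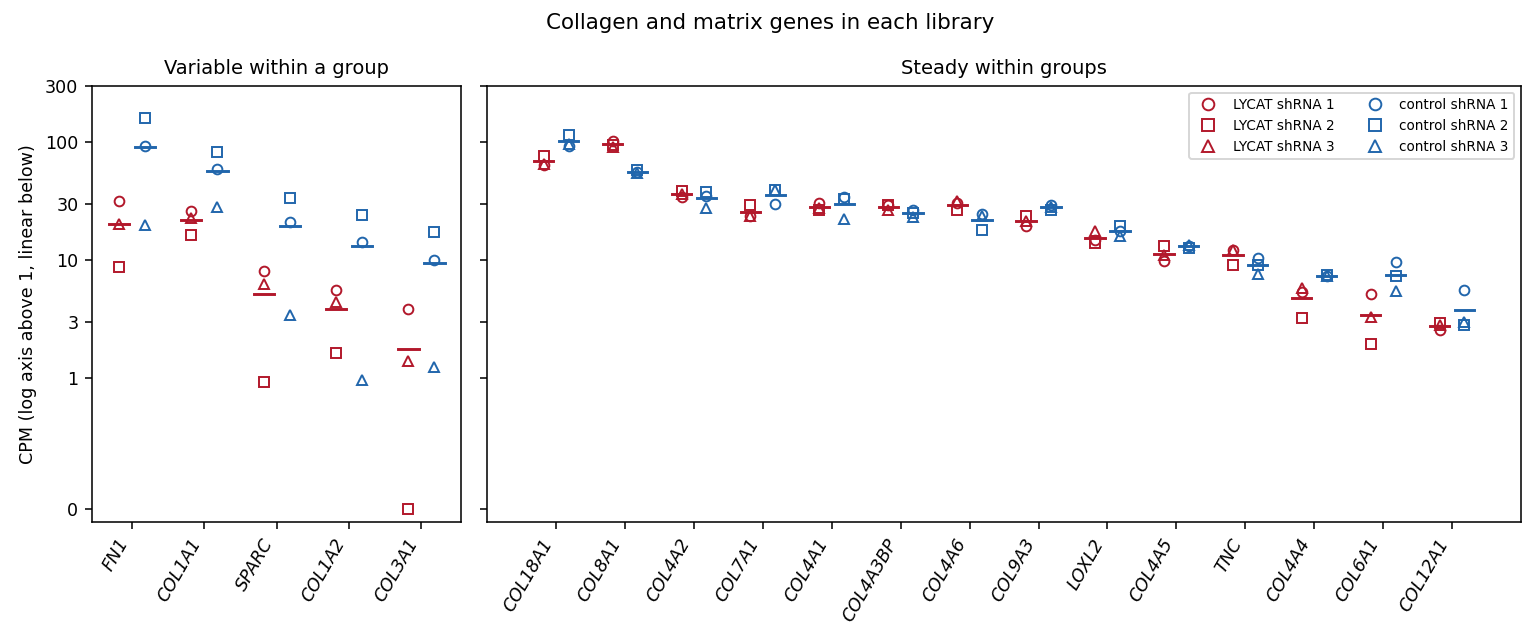
Level of each of the 19 tested members in CPM (vertical axis, log above 1 and linear below), one symbol per library and a bar for the group mean, with LYCAT shRNA left of control shRNA for each gene. The 5 variable members spread over up to 24.3-fold between control libraries, while the steady members lie within 1.96-fold there; between LYCAT shRNA libraries the steady COL6A1 spreads over 2.64-fold and the variable COL1A1 over 1.58-fold.

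With LYCAT shRNA, 4 tested members fell and 2 rose, while 13 did not pass (edgeR adjusted p under 0.05 over all 11097 tested genes). COL18A1, COL7A1, COL9A3 and COL6A1 fell, and COL8A1 and COL4A6 rose. Among all tested genes 9.26% were called lower and 9.81% higher. The groups did not overlap for 6 members lower and 2 higher with LYCAT shRNA, where 16.2% and 16.6% of all tested genes did so. The median log2 fold change of the 19 was -0.47, against -0.01 over all tested genes. All 6 changed members were steady, and 0 of the 5 variable members passed, although their fold changes were the largest of the 19. The spread that set these classes also enters the standard errors of the fit, so this split is not a separate result. Outside the members, KRT18 was variable in both groups by the same cutoffs and passed (edgeR adjusted p = 0.00178).

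**Figure D2:**
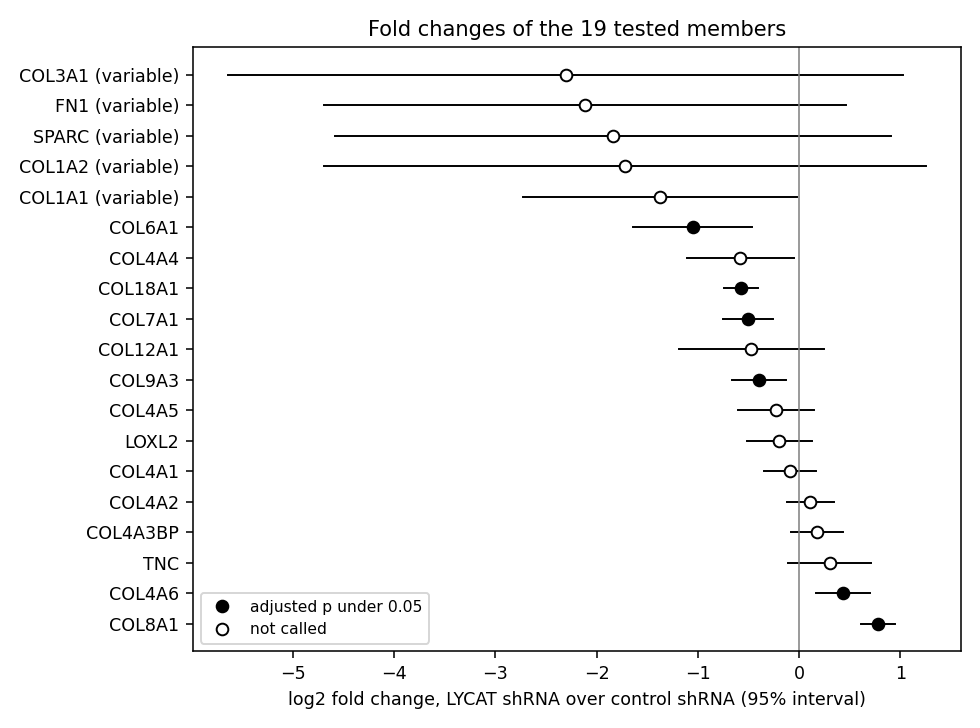
Log2 fold change of LYCAT shRNA over control shRNA for the 19 tested members, ordered by size, with 95% intervals from the quasi-likelihood fit. Filled points have an adjusted p under 0.05, and the widest intervals are those of the 5 variable members.

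The tested fibrillar collagens were all variable between control libraries. COL1A1 encodes the alpha-1 chain of type I collagen, the main fibre protein of bone, skin and scar. It stood at 25.9, 16.5 and 22.9 CPM in LYCAT shRNA libraries 1 to 3, against 59.4, 82.7 and 28.3 CPM in control libraries 1 to 3. Every LYCAT shRNA library was below every control library, but control library 3 lay closer to the LYCAT shRNA libraries than to the other two controls. The means were 21.8 ± 4.85 CPM with LYCAT shRNA and 56.8 ± 27.3 CPM with control shRNA (SD, n = 3 each), and the log2 fold change of -1.37 did not pass (SE 0.499, edgeR adjusted p = 0.158).

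COL1A2, the alpha-2 chain that joins a pair of alpha-1 chains in the type I trimer, stood at 5.53, 1.61 and 4.44 CPM with LYCAT shRNA, against 14.4, 23.9 and 0.985 CPM with control shRNA. The lowest of all 6 libraries was thus a control library, and the groups overlapped. Its log2 fold change was -1.72 (SE 1.10, edgeR adjusted p = 0.393). Per transcript length COL1A1 exceeded COL1A2 by 3.77, 8.21 and 4.15 times in LYCAT shRNA libraries 1 to 3, and by 3.33, 2.78 and 23.1 times in control libraries 1 to 3. The extreme ratios rest on 5 COL1A2 counts in LYCAT shRNA library 2 and 4 in control library 3, so they are imprecise. COL1A1 was counted 51 and 115 times in these libraries, and the part of counting noise in the ratios was not tested. In the other libraries the ratio was 2.78 to 4.15, and both chains had the same order of libraries in each group.

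COL3A1, whose chain forms the fine type III fibres of elastic tissues, was counted 18, 0 and 6 times with LYCAT shRNA, against 47, 85 and 5 times with control shRNA. The groups overlapped again through control library 3, and the log2 fold change was -2.31 (SE 1.23, edgeR adjusted p = 0.31). The other 8 fibrillar chains were too low to test with all libraries. COL5A1 and COL5A2, which make the type V chains found inside type I fibres, had the highest of these counts. COL5A1 was counted 8, 2 and 7 times with LYCAT shRNA, against 30, 32 and 4 times with control shRNA. COL5A2 was counted 8, 0 and 4 times with LYCAT shRNA, against 12, 26 and 6 times with control shRNA. Both had the same low control library. COL11A1 had at most 5 counts in a library, COL2A1 at most 2 and COL27A1, COL11A2 and COL5A3 at most 1, while COL24A1 had 0 in all.

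FN1 and SPARC differed between libraries in the same way as the fibrillar chains. Fibronectin, a glycoprotein that links cells to collagen, stood at 31.7, 8.71 and 20.3 CPM with LYCAT shRNA, against 92.6, 161.5 and 19.7 CPM with control shRNA. Control library 3 was therefore below 2 of the 3 LYCAT shRNA libraries. The means were 20.2 ± 11.5 CPM with LYCAT shRNA and 91.3 ± 70.9 CPM with control shRNA (SD, n = 3 each), with a log2 fold change of -2.12 that did not pass (SE 0.951, edgeR adjusted p = 0.238). SPARC, also called osteonectin, a calcium-binding matrix protein, stood at 8.08, 0.968 and 6.31 CPM with LYCAT shRNA, against 21.0, 33.6 and 3.45 CPM with control shRNA. The groups overlapped, and the log2 fold change was -1.84 (SE 1.01, edgeR adjusted p = 0.324).

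All 5 variable members had 1 order of libraries, LYCAT shRNA 1 above 3 above 2, and control shRNA 2 above 1 above 3. Among the 14 steady members 0 had this order, and among all tested genes 3.04% had it. This order was chosen after the values were seen, and it carries no test. FN1 had the largest departure from counting noise of the members, a chi-square per degree of freedom of 23.0 in LYCAT shRNA and 234 in control libraries, where the medians over those genes were 0.983 and 1.24. By excess squared coefficient of variation within groups, COL3A1 was number 2, SPARC number 5, COL1A2 number 7, FN1 number 8 and COL1A1 number 26 of 9959 genes. The summed level of the 11 fibrillar chains was 39.6, 19.7 and 31.5 CPM in LYCAT shRNA libraries 1 to 3, against 94.3, 136.8 and 33.3 CPM in control libraries 1 to 3. The 6 type IV chains summed to 110.6, 108.4 and 112.8 CPM with LYCAT shRNA, against 114.9, 108.8 and 94.6 CPM with control shRNA.

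**Figure D3:**
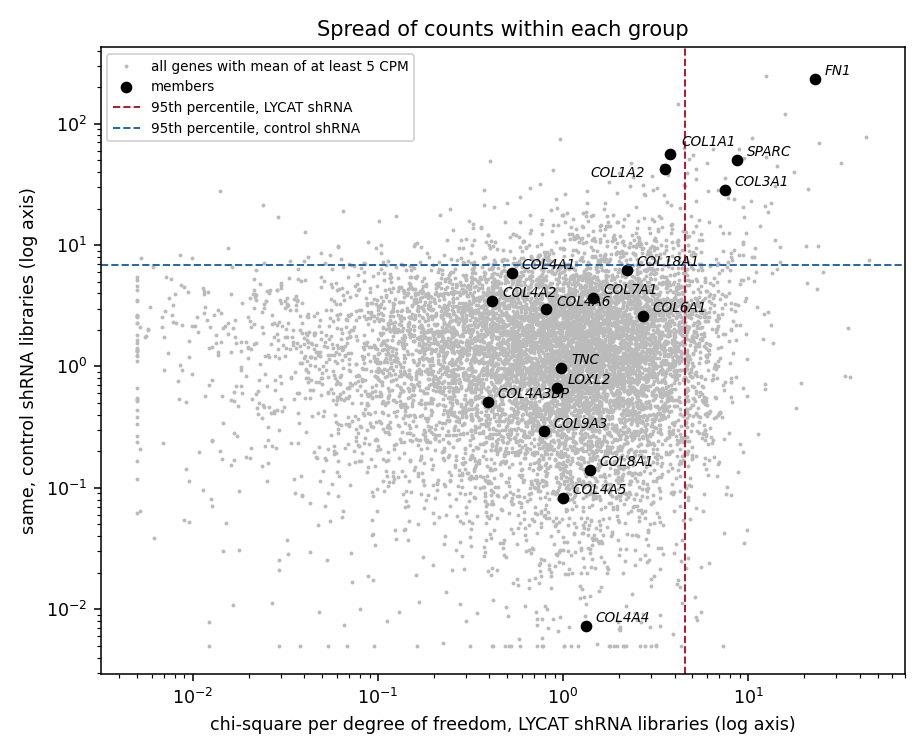
Chi-square per degree of freedom of counts within the LYCAT shRNA libraries (horizontal axis, log) and within the control shRNA libraries (vertical axis, log), for the 18 members with a mean of at least 5 CPM (black) and all genes of that level (grey, values under 0.005 drawn at 0.005), with dashed lines at the 95th percentiles. FN1, SPARC and COL3A1 exceed both lines, COL1A1 and COL1A2 exceed the control line, and the other members exceed neither.

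Of the listed markers of fibroblasts, the main source of fibrillar collagen in tissue, TAGLN and ACTA2 had the library order of the variable members. VIM and THY1 were highest in control library 1 among the controls. FBN1 was highest there in control library 3 (1.93, 1.42 and 2.22 CPM in control libraries 1 to 3). The epithelial marker KRT18 had the library order of the variable members and was variable in both groups (chi-square per degree of freedom 11.6 and 14.4). Its spread was small, at 1.177-fold with LYCAT shRNA and 1.175-fold with control shRNA, and the other epithelial markers had other orders. The 13 listed markers summed to 27.9, 12.6 and 24.5 CPM in LYCAT shRNA libraries 1 to 3, against 48.0, 50.1 and 25.1 CPM in control libraries 1 to 3. FAP had 0 counts and DCN 1 in all 6 libraries together, BGN at most 1 in a library, POSTN, PDGFRA and PDGFRB at most 3, MGP at most 5 and FBN1 at most 10. THY1 was counted 3, 2 and 1 times with LYCAT shRNA, against 22, 10 and 2 times with control shRNA. LUM was counted 7, 1 and 7 times with LYCAT shRNA, against 5, 19 and 1 times with control shRNA. VIM, TAGLN and ACTA2, which other cell types also express, made up most of the sum in every library and were the 3 that could be tested. TAGLN was lower with LYCAT shRNA (log2 -1.21, edgeR adjusted p = 7.35e-06), and VIM (log2 -1.57, adjusted p = 0.193) and ACTA2 (log2 0.17, adjusted p = 0.691) did not pass. Of 5 endothelial and 5 blood markers, 0 could be tested, and their sums were at most 3.22 and 0.425 CPM in a library. The part of other cells in the spread of the matrix genes was not tested. In bulk RNA, fewer cells that express a gene and less of its RNA per cell cannot be told apart.

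Other genes also varied within groups. The 10 genes outside the members with the largest excess squared coefficient of variation were POU5F1B, TUBB2B, LIN28A, H19, ACTC1, CST1, IFITM1, VIM, LOXL1 and CCL20. H19, ACTC1 and LOXL1 had the order of libraries of the variable members. LOXL1 encodes another collagen crosslinking enzyme. POU5F1B, TUBB2B, LIN28A, CST1 and IFITM1 had another order, with control library 1 the highest of all 6 and LYCAT shRNA library 2 the lowest. LIN28A, an RNA-binding protein of pluripotent cells, stood at 3.40, 0.968 and 4.20 CPM with LYCAT shRNA, against 15.7, 4.86 and 2.22 CPM with control shRNA. H19, a long noncoding RNA of fetal tissue, stood at 11.3, 0.645 and 9.11 CPM with LYCAT shRNA, against 28.1, 41.4 and 8.37 CPM with control shRNA. Outside the members, the 10 genes whose log2 CPM, centred by group, was most like that of COL1A1 were PPP3CB, C15orf57, DRAP1, C14orf118, DIAPH1, YY1, NHP2, PAX9, SRGAP1 and ATF6. Their Pearson r was 0.983 to 0.998 over 6 libraries, picked from the genes of at least 5 CPM that are not members. Among the members r was 0.989 for FN1, 0.988 for COL1A2, 0.936 for SPARC, 0.919 for COL4A1 and 0.883 for COL3A1. Of the 10 genes outside the members 9 spread over at most 1.35-fold between control libraries, where COL1A1 spread over 2.92-fold.

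The calls for the variable members differed between test methods. For all of them but FN1 the call also changed without control library 3. Leaving out any other single library changed no call of the variable members. The fit gave them 0.265 prior degrees of freedom, against 67.9 to 71.3 for the steady members, so their variances were estimated almost without borrowing from other genes. With robust=FALSE, where all genes borrow alike, 9 members were lower, the 5 variable ones among them, where 9.08% of all tested genes were lower. With limma-voom 8 members were lower (8.64% of all tested genes), among them FN1, SPARC, COL1A1 and COL3A1 (adjusted p = 0.00695, 0.0431, 0.000168 and 0.0305). DESeq2 called 3 members lower (5.03% of all tested genes), COL1A1 among them (adjusted p = 0.0377). With no filter on low counts 7 of 41 members were lower (6.38% of all tested genes), and COL5A1, COL5A2 and COL6A3 were then among them (edgeR adjusted p = 0.00046, 0.00997 and 0.00738).

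Without control library 3, 10 of 23 members were lower, where 7.33% of all tested genes were. COL1A1, COL1A2, COL3A1 and SPARC then passed with log2 fold changes of -1.67, -2.21, -2.78 and -2.29 (edgeR adjusted p = 5.84e-11, 6.28e-08, 0.00522 and 0.0392), and so did COL5A1, COL5A2 and COL6A2. FN1 did not (log2 -2.56, adjusted p = 0.0717). Without control libraries 1 and 2 together, 2 of 21 members were lower, COL18A1 and COL7A1, where 4.89% of all tested genes were. That fit has 1 control library and takes its variance from the LYCAT shRNA libraries. FN1, SPARC, COL3A1 and COL1A2 then had fold changes above 0, of 0.12, 0.68, 0.66 and 2.02 on the log2 scale, and 0 of these 4 passed (edgeR adjusted p = 0.0683 to 0.961). COL1A1 stayed below 0 without passing (log2 -0.34, adjusted p = 0.298). The direction of these 4 genes between the groups thus rested on control libraries 1 and 2. Those were the highest of all 6 libraries for these genes, so the sign change follows from the levels given above and is not separate support. No 2 LYCAT shRNA libraries were left out together.

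**Figure D4:**
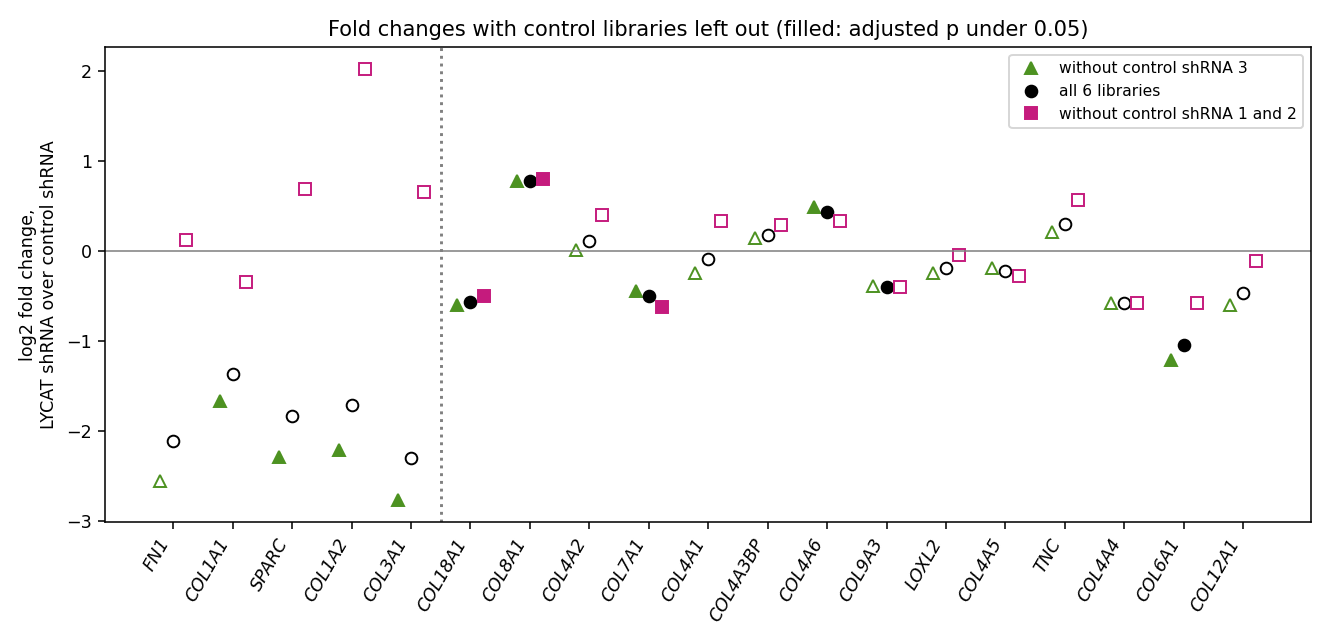
Log2 fold change of LYCAT shRNA over control shRNA for the 19 tested members with all 6 libraries, without control library 3, and without control libraries 1 and 2, with filled symbols for an adjusted p under 0.05. Left of the dotted line, FN1, SPARC, COL1A2 and COL3A1 change sign without control libraries 1 and 2, while COL18A1, COL8A1 and COL7A1 to the right keep their direction and their call.

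The region just upstream of the annotated start is shown for FN1 and SPARC, the 2 of the 5 variable members matched in the sequence table, because the variable members had 1 order of libraries; COL1A1, COL1A2 and COL3A1 were not matched. The sequences are RefSeq's (GRCh38.p14), 250 bases before the start, read 5′ to 3′ on the strand of the gene; FN1 lies at chr2:215436069-215436318 and SPARC at chr5:151686916-151687165, both on the minus strand. Capitals mark the CCAAT box, the TATAA box, the GC box GGGCGG and the cyclic AMP response element TGACGTCA, each on either strand, and overlapping matches run together.
FN1: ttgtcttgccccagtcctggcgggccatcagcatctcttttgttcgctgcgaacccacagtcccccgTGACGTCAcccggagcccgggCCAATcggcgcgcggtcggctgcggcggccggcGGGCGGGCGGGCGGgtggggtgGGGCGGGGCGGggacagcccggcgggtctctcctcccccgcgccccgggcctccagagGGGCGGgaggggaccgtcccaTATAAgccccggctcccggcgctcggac
SPARC: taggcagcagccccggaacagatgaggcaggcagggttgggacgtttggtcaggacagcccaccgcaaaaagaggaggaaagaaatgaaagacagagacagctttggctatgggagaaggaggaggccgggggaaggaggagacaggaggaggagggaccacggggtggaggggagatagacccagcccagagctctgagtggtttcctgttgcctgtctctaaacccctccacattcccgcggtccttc
The FN1 window held 1 CCAAT box, 1 TATAA box, 6 GC boxes and 1 cyclic AMP response element, and the SPARC window held 0 of each. Of 35116 windows of 250 bases, 32% held a CCAAT box, 18.9% a TATAA box, 42.6% a GC box and 1.65% a cyclic AMP response element. Of the 52 members 36 had a window in this table, 11 of the 19 tested ones.

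The members that passed were among the steady ones, whose smaller spread also enters the test. COL8A1 rose most. It encodes the alpha-1 chain of type VIII collagen, a short chain that builds hexagonal sheets under endothelium and around remodelling vessels. It stood at 102.1, 94.8 and 91.3 CPM with LYCAT shRNA, against 55.5, 57.6 and 55.2 CPM with control shRNA. All LYCAT shRNA libraries were well above all control libraries, and both groups were tight. The means were 96.1 ± 5.49 CPM with LYCAT shRNA and 56.1 ± 1.29 CPM with control shRNA (SD, n = 3 each), a 1.71-fold rise (log2 0.78, SE 0.0837, edgeR adjusted p = 4.57e-12). Its partner chain COL8A2 had 0 counts in every LYCAT shRNA library and 1 in each control library, and COL10A1, of the same short-chain class, had 1 count in all.

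COL18A1 fell. It encodes the core protein of type XVIII collagen, a basement membrane proteoglycan whose C-terminal fragment is endostatin. It stood at 64.4, 76.4 and 65.9 CPM with LYCAT shRNA, against 92.8, 114.5 and 96.8 CPM with control shRNA, with no overlap. The means were 68.9 ± 6.56 CPM with LYCAT shRNA and 101.4 ± 11.6 CPM with control shRNA (SD, n = 3 each), 1.49-fold lower (log2 -0.57, SE 0.0840, edgeR adjusted p = 1.29e-07). COL18A1-AS1, which lies on the other strand, had 0 counts in all libraries. No source used here says if reads were counted by strand. The related chain COL15A1 had 1 count in all 6 libraries together.

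COL7A1, the chain of the anchoring fibrils below the epidermis and other stratified epithelia, fell as well. It stood at 23.8, 29.4 and 23.6 CPM with LYCAT shRNA, against 29.8, 39.1 and 38.9 CPM with control shRNA. LYCAT shRNA library 2 and control library 1 came close to each other without crossing. It was 1.42-fold lower (log2 -0.51, SE 0.126, edgeR adjusted p = 0.00177).

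Among the chains that sit on fibres (the fibril-associated collagens), COL9A3 fell. It encodes the alpha-3 chain of type IX collagen, known from the surface of cartilage fibrils, and stood at 19.4, 23.5 and 21.5 CPM with LYCAT shRNA, against 29.4, 26.8 and 28.1 CPM with control shRNA. It was 1.32-fold lower (log2 -0.40, SE 0.134, edgeR adjusted p = 0.0252), and it did not pass without any one of control libraries 1 and 3 and LYCAT shRNA libraries 1 and 3 (adjusted p = 0.061 to 0.158) or with DESeq2 (0.138). The other chains of type IX were nearly absent, with COL9A1 at 0 and COL9A2 at up to 3 counts in a library. COL12A1 was low, at 2.55, 2.90 and 2.80 CPM with LYCAT shRNA, against 5.57, 2.84 and 2.96 CPM with control shRNA (log2 -0.47, edgeR adjusted p = 0.4). COL16A1 had up to 10 counts in a library, COL14A1 up to 3 and COL22A1 up to 1, while COL19A1, COL20A1 and COL21A1 had 0.

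COL6A1, of the beaded filament collagen VI found around most cells, fell 2.07-fold. It stood at 5.10, 1.94 and 3.27 CPM with LYCAT shRNA, against 9.65, 7.30 and 5.42 CPM with control shRNA (log2 -1.05, SE 0.294, edgeR adjusted p = 0.00601). The highest LYCAT shRNA library and the lowest control library were nearly equal. COL6A1 did not pass without control library 1 or LYCAT shRNA library 2 (adjusted p = 0.0927 and 0.0653) or with DESeq2 (0.0613), and it was number 47 of 9959 genes by excess squared coefficient of variation. Its partner chains were too low to test: COL6A2 was counted 4, 0 and 4 times with LYCAT shRNA, against 11, 12 and 3 times with control shRNA. COL6A3 was counted 2, 1 and 3 times with LYCAT shRNA, against 9, 20 and 4 times with control shRNA. COL6A5 had 6 counts, all in control library 3, and COL6A6 had 0.

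Type IV collagen, the mesh of the basement membrane, comes from 6 genes that lie head to head in pairs. COL4A1 and COL4A2, the chains of the common form, did not pass. COL4A2 stood at 34.5, 38.4 and 36.7 CPM with LYCAT shRNA, against 35.2, 37.5 and 27.6 CPM with control shRNA (log2 0.11, 95% interval -0.12 to 0.34, edgeR adjusted p = 0.567). COL4A1 stood at 30.2, 26.4 and 27.6 CPM with LYCAT shRNA, against 34.1, 33.0 and 22.4 CPM with control shRNA (log2 -0.09, 95% interval -0.35 to 0.17, edgeR adjusted p = 0.684). Control library 3 was the lowest of all 6 for both. Per transcript length, COL4A1 stood at 0.860, 0.676 and 0.738 of COL4A2 in LYCAT shRNA libraries 1 to 3, and at 0.952, 0.865 and 0.798 of it in control libraries 1 to 3. The chains of this pair thus stayed within a narrow ratio, where the type I ratio had extreme values in libraries with few COL1A2 counts.

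The COL4A1 and COL4A2 starts annotated by RefSeq (GRCh38.p14) lie 126 bases apart, and the whole stretch between them is shown because both genes are read outward from it. It lies at chr13:110307158-110307283 and is printed 5′ to 3′ on the plus strand, the strand of COL4A2, with capitals for the same motifs as above.
COL4A1-COL4A2: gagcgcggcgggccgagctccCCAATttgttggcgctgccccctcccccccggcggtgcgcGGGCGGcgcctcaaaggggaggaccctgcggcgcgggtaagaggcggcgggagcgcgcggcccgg
It held 1 CCAAT box and 1 GC box, and 0 of the other motifs.

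COL4A6 rose, while COL4A5, which is read in the other direction from the same stretch of the X chromosome, did not pass. COL4A6 stood at 30.2, 26.4 and 31.5 CPM with LYCAT shRNA, against 24.7, 17.8 and 23.6 CPM with control shRNA, with no overlap. It was 1.35-fold higher (log2 0.43, SE 0.134, edgeR adjusted p = 0.0149), and it did not pass without control library 2, LYCAT shRNA library 1 or LYCAT shRNA library 3 (adjusted p = 0.145, 0.0751 and 0.0992) or with DESeq2 (0.109). COL4A5 stood at 9.78, 13.2 and 10.98 CPM with LYCAT shRNA, against 13.1, 12.6 and 13.5 CPM with control shRNA (log2 -0.23, 95% interval -0.60 to 0.15, edgeR adjusted p = 0.449). Per transcript length COL4A6 exceeded COL4A5 by 2.97, 1.92 and 2.76 times in LYCAT shRNA libraries 1 to 3, and by 1.81, 1.36 and 1.68 times in control libraries 1 to 3. These ratios did not overlap between the groups, and their difference was not tested. COL4A4, of the remaining pair, stood at 5.32, 3.23 and 5.84 CPM with LYCAT shRNA, against 7.29, 7.50 and 7.39 CPM with control shRNA, and did not pass (log2 -0.58, edgeR adjusted p = 0.115), while its partner COL4A3 had at most 3 counts in a library.

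The annotated starts of COL4A6 and COL4A5 lie 379 bases apart, and the 250 bases before each are shown because only 1 gene of the pair was called. COL4A5 is at chrX:108439588-108439837 on the plus strand, and COL4A6, at the first of its listed starts, is at chrX:108439459-108439708 on the minus strand. Each is printed 5′ to 3′ on the strand of its gene (RefSeq, GRCh38.p14), so that the shared part appears in both as reverse complements.
COL4A6: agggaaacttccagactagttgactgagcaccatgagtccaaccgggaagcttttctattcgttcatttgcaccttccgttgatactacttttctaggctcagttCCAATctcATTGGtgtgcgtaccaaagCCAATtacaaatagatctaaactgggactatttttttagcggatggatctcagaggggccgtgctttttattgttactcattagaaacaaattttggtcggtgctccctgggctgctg
COL4A5: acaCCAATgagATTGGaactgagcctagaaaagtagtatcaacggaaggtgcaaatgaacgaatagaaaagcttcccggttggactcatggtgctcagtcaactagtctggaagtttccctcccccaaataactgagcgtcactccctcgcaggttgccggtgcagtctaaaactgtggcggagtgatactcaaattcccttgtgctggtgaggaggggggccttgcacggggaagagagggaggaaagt
The COL4A6 window held 3 CCAAT boxes and the COL4A5 window 2, and neither held any of the other motifs. Both boxes of the COL4A5 window lie in the shared part and are the same sites as 2 of the 3 in the COL4A6 window.

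Of the associated matrix genes, the steady ones did not pass. LOXL2, a lysyl oxidase that crosslinks collagen, stood at 14.7, 13.9 and 17.5 CPM with LYCAT shRNA, against 17.6, 19.3 and 16.0 CPM with control shRNA (log2 -0.19, 95% interval -0.52 to 0.13, edgeR adjusted p = 0.45). TNC stood at 12.1, 9.03 and 12.1 CPM with LYCAT shRNA, against 10.5, 9.12 and 7.63 CPM with control shRNA (log2 0.30, 95% interval -0.11 to 0.71, edgeR adjusted p = 0.333). LOX was too low to test, with 8, 10 and 6 counts with LYCAT shRNA, against 14, 9 and 7 counts with control shRNA. COL4A3BP, which is not a matrix gene, stood at 28.3 ± 1.65 CPM with LYCAT shRNA and 24.9 ± 1.71 CPM with control shRNA (SD, n = 3 each; log2 0.18, edgeR adjusted p = 0.365).

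The remaining rows were barely detected. Of the 4 transmembrane collagens, COL17A1, a chain of the hemidesmosome, had at most 6 counts in a library and COL13A1 at most 5, while COL23A1 and COL25A1 had 0. COL28A1 had 0, COL6A4P2 at most 1 and COL6A4P1 0. In all, 33 of the 52 rows were not tested and 11 of them had 0 counts in every library. Per kilobase of the longest coding transcript, the highest levels with LYCAT shRNA were those of COL8A1, COL18A1 and COL9A3 (16.8, 10.5 and 8.59 CPM per kb). With control shRNA they were those of COL18A1, COL9A3 and FN1 (15.4, 11.2 and 10.3 CPM per kb), followed by COL8A1 at 9.83. The 3 fibrillar chains ranged over 0.314 to 3.23 CPM per kb with LYCAT shRNA and 1.72 to 8.44 CPM per kb with control shRNA.

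Of 27 genes of the machinery that modifies and exports collagen chains 20 were tested; 3 of them rose, 2 fell and 15 did not pass, where 9.81% of all tested genes rose and 9.26% fell. Their median log2 fold change was 0.01. P4HA2, a catalytic subunit of the prolyl 4-hydroxylase that stabilises the triple helix, rose 1.27-fold, at 63.4, 57.4 and 67.5 CPM with LYCAT shRNA, against 53.4, 47.6 and 48.3 CPM with control shRNA (log2 0.34, edgeR adjusted p = 0.0055). P4HB, the disulphide isomerase that forms its other subunit, rose 1.12-fold (log2 0.17, adjusted p = 0.0121). GLT25D1, a collagen galactosyltransferase, rose 1.17-fold with overlapping groups (log2 0.22, adjusted p = 0.0448). MIA3, which loads procollagen into carriers at the endoplasmic reticulum, fell 1.24-fold, at 61.7, 50.6 and 56.8 CPM with LYCAT shRNA, against 66.4, 72.6 and 72.7 CPM with control shRNA (log2 -0.31, edgeR adjusted p = 0.0085). P4HA1, the other catalytic subunit measured at this level, fell 1.15-fold and lay just under the threshold (log2 -0.20, adjusted p = 0.0499). With 1 library left out, 1 to 3 genes of this list were higher and 1 to 3 lower. SERPINH1, the collagen chaperone HSP47, did not pass (log2 -0.20, adjusted p = 0.0627).

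Of 15 genes for collagen breakdown and its inhibition 7 were tested; 1 rose, 1 fell and 5 did not pass, near the same shares of all tested genes. Their median log2 fold change was -0.32. TIMP1, an inhibitor of matrix metalloproteinases, rose 1.46-fold, at 244.8, 254.4 and 246.4 CPM with LYCAT shRNA, against 171.0, 173.5 and 166.5 CPM with control shRNA (log2 0.54, SE 0.0582, edgeR adjusted p = 4.28e-12). TIMP3, the inhibitor that binds to the matrix, fell, with 10, 3 and 3 counts with LYCAT shRNA, against 32, 50 and 11 counts with control shRNA (log2 -2.33, SE 0.431, edgeR adjusted p = 0.000101). It shared the high control libraries 1 and 2 with the variable members, and without both of them 0 genes of this list were lower. MMP3, MMP8 and MMP13 had 0 counts in all libraries, MMP1 had 1, MMP2, MMP9 and MMP14 had at most 6 in a library, and MMP16 at most 12.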

How the data were processed

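RNA sequencing libraries of H2122 cells (3 per shRNA) were compared. The authors deposited raw counts per gene symbol in 1 table. The submitters' processing notes name featureCounts 1.5.1, Bowtie2, BWA 0.7.15 and bcl2fastq 2.17, and the builds mm10 and hg19, without saying which of them made the table or if reads were counted by strand. The LYCAT shRNA columns are headed with a spelling (cycat) that no label uses, and were matched to those samples as the group other than control.

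Low counts were filtered with filterByExpr by group (edgeR 4.0.16, R 4.3.3), libraries were scaled by TMM, and the groups were compared by the robust quasi-likelihood F test with group as the only term, with Benjamini-Hochberg adjustment over all 11097 tested genes. SEs are the log2 fold change over the square root of F. CPM use the scaled library sizes, and levels per kilobase use the longest coding transcript in GENCODE v29. Members, lists and alternatives were chosen with earlier results of these data known. All tested members are named, with values where they had at least 5 CPM or passed, and list genes by adjusted p. On simulated counts of this comparison (10990 genes, 200 changed), 66% of 1.5-fold and 89% of 2-fold changes were recovered, and 7.19% of calls were false. Alternatives used DESeq2 1.42.0 and limma 3.58.1, among others.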

Additional observations from a re-analysis of the deposited data

How the results depend on the processing

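COL8A1, COL18A1 and COL7A1 kept their direction and passed under every alternative run. The number of members lower with LYCAT shRNA, 4 in that fit, was 7 with no filter, 8 with limma-voom, 9 with robust=FALSE, 2 without control libraries 1 and 2, and 2 to 10 with 1 library left out; the number higher, 2 in that fit, was 1 with DESeq2, 1 without control libraries 1 and 2, and 1 to 2 with 1 library left out. Without control libraries 1 and 2 the log2 fold changes of COL4A1, COL3A1, FN1, SPARC and COL1A2 were 0.33, 0.66, 0.12, 0.68 and 2.02, the reverse of those with all libraries, and COL4A1 was 0.00905 without control library 1 and -0.24 without control library 3, its extremes with 1 library left out. Of the collagen-processing genes, 2 were lower with all libraries, against 1 with DESeq2 size factors, 1 with limma-voom, 1 with the replicate block, 0 with DESeq2, 0 without control libraries 1 and 2, and 1 to 3 with 1 library left out; 3 were higher, and 1 to 3 with 1 library left out. The fallen collagenase-list gene, TIMP3, was not tested at a mean of at least 5 CPM and did not pass without control libraries 1 and 2 (0 lower in both). Calls were lost in some of these alternatives and gained in others. The share of all tested genes called also changed. With 1 library left out, 6.18% to 9.82% of them were lower and 6.61% to 10.1% higher, and 19 to 23 members were tested. With DESeq2, 5.03% were lower and 5.72% higher, against 9.26% and 9.81% in the main fit. Fits with fewer libraries rest on less data, and the cause of the changed calls was not tested.

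Same-numbered libraries did not deviate together (correlations of 0.01, -0.07 and -0.05), where libraries with different numbers gave -0.106 to 0.137. With so few libraries this cannot show whether a number marks a shared culture or day. The replicate block left 4 members lower and 2 higher, where 9.03% of all tested genes were lower and 9.41% higher. Depth limits the 33 rows not tested with all libraries and the usual filter. Of these, COL5A1, COL5A2 and COL6A3 were lower with no filter, and COL5A1, COL5A2 and COL6A2 without control library 3.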
